A study of Mus musculus with 4 samples.

Results

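The 10 genes described here are protein-coding genes of the mouse mitochondrial genome, chosen by name: mt-Nd1, mt-Nd2, mt-Nd4, mt-Nd5, mt-Co1, mt-Co2, mt-Co3, mt-Atp6, mt-Atp8 and mt-Cytb. All 10 were found among the 32285 genes of the count tables, and all 10 passed the filter on low counts in every comparison of the 4 sections. Another 3 protein-coding genes of that genome, mt-Nd3, mt-Nd4l and mt-Nd6, were not chosen and are given only where they add something.

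The samples were 4 coronal brain sections, each from 1 male mouse aged 3 to 4 months, measured by 10x Visium, in which spots of a slide printed with barcoded poly(T) oligonucleotides capture the polyadenylated RNA of the tissue above them. The 2 trained mice had learned to avoid a shock zone on a rotating arena (active place avoidance), and the 2 untrained mice were placed in the same arena with no shock. All 4 mice were of the genotype ArcCreERT2::eYFPflx, in which the Arc promoter drives a Cre recombinase that switches on eYFP once 4-hydroxytamoxifen is given, all received that drug under brief isoflurane anesthesia, and all were killed 3 days after the retention test. A spot holds several cells, and the replicate is the section. The labels give the tissue as hippocampus, but each section spans 1 hemisphere: the spots assigned to CA1, CA3 or DG numbered 211, 196, 170 and 199 of the 2865, 3055, 2359 and 2661 spots of trained 1, trained 2, untrained 1 and untrained 2, the order used for every set of 4 values below. Pairs of sections shared 1353 to 2413 barcodes, which mark fixed positions of the array and not shared cells. Totals were 7119995, 10330015, 3560294 and 6581748 UMIs (unique molecular identifiers, each counting 1 captured molecule).

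Mitochondria make most of the ATP of a neuron, and the brain is known for its high demand. The mitochondrial genome is a small circle, present in many copies per cell, that codes for core subunits of the respiratory chain: the ND subunits of complex I, which takes electrons from NADH, cytochrome b of complex III, the CO subunits of complex IV, which hands the electrons to oxygen, and the ATP6 and ATP8 subunits of ATP synthase. It is transcribed from both strands as long precursors that are cut at the tRNAs and polyadenylated, so the genes on the same strand share a transcription start while each mRNA has a lifetime of its own. All other subunits of these complexes are coded in the nucleus.

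The sequences below show features that bear on how the 10 mRNAs are counted. In the GENCODE vM21 annotation (GRCm38) all 10 genes lie on the plus strand of chromosome M, from mt-Nd1 at chrM:2751-3707 to mt-Cytb at chrM:14145-15288, each as a gene with no intron. mt-Atp8 (chrM:7766-7969) and mt-Atp6 (chrM:7927-8607) overlap by 43 bases and are known to be carried on 1 mRNA, whose tail follows mt-Atp6. The overlap, chrM:7927-7969, is shown with the start codon of mt-Atp6 and the stop codon of mt-Atp8 in capitals:
mt-Atp8 and mt-Atp6 overlap: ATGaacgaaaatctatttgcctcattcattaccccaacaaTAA
A read within these bases cannot be assigned to either gene. The last 20 bases of 5 genes are shown next, with the stop codon, or the lone base left after the last whole codon, in capitals, since the tail by which the slide captures the mRNA begins there for mt-Nd4, mt-Co3 and mt-Cytb:
mt-Nd4: aattacaggcctgacaataT
mt-Co3: catttattgatgaggatctT
mt-Cytb: aatactaaaattatatccaT
mt-Atp6: atctacatgataatacaTAA
mt-Atp8: attcattaccccaacaaTAA
In mt-Nd4, mt-Co3 and mt-Cytb 1 base remains after the last codon, and the tail is known to complete the stop codon. mt-Atp8 has the highest share of A of the 10 genes (40.7% of 204 bases), followed by mt-Nd2 (36.9%), while mt-Co1 (29.5%) and mt-Co3 (29.8%) have the lowest.

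The 10 genes held 850401, 689146, 418800 and 741091 UMIs, or 11.9%, 6.67%, 11.8% and 11.3% of all UMIs of trained 1, trained 2, untrained 1 and untrained 2. Trained 2 thus stood below the other 3 sections, which lay within 0.684 percentage points of each other. With the 3 further genes the shares were 12.2%, 6.83%, 12.1% and 11.6%. Per spot, the mean number of UMIs of the 10 genes was 297, 226, 178 and 279, and that of all nuclear genes was 2181, 3150, 1327 and 2187. Trained 2 had the most nuclear UMIs per spot and a level of the 10 genes between those of untrained 1 and untrained 2. In sums over spots, fewer cells of a type and less RNA per cell cannot be told apart, nor can less mitochondrial RNA and more nuclear RNA in a share.

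Other measures of trained 2 also stood apart. Ttr and Enpp2, both abundant in the choroid plexus, together made up 0.0782% of its UMIs against 0.270% to 0.595% in the other sections, and the blood markers 0.0454% against 0.0638% to 0.0817%. The neuron markers stood at 0.486% in trained 2 and 0.482% to 0.494% in the others, and the nuclear-retained RNAs such as Malat1 at 0.306% and 0.227% to 0.302%. Over the 4 sections the astrocyte markers ranged from 0.221% to 0.245%, the microglia markers from 0.0146% to 0.0168% and the endothelium markers from 0.00583% to 0.00659%. In the hippocampal field (the CA1, CA3 and DG spots and the unassigned spots between them) the astrocyte markers made up 0.312% in trained 2 and 0.188% to 0.221% in the others, the microglia markers 0.0224% and 0.0133% to 0.0153%, and Ttr and Enpp2 0.0374% and 0.137% to 0.310%. The part of these measures in the share of trained 2, low over the section and high in DG, was not tested.

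**Figure D1:**
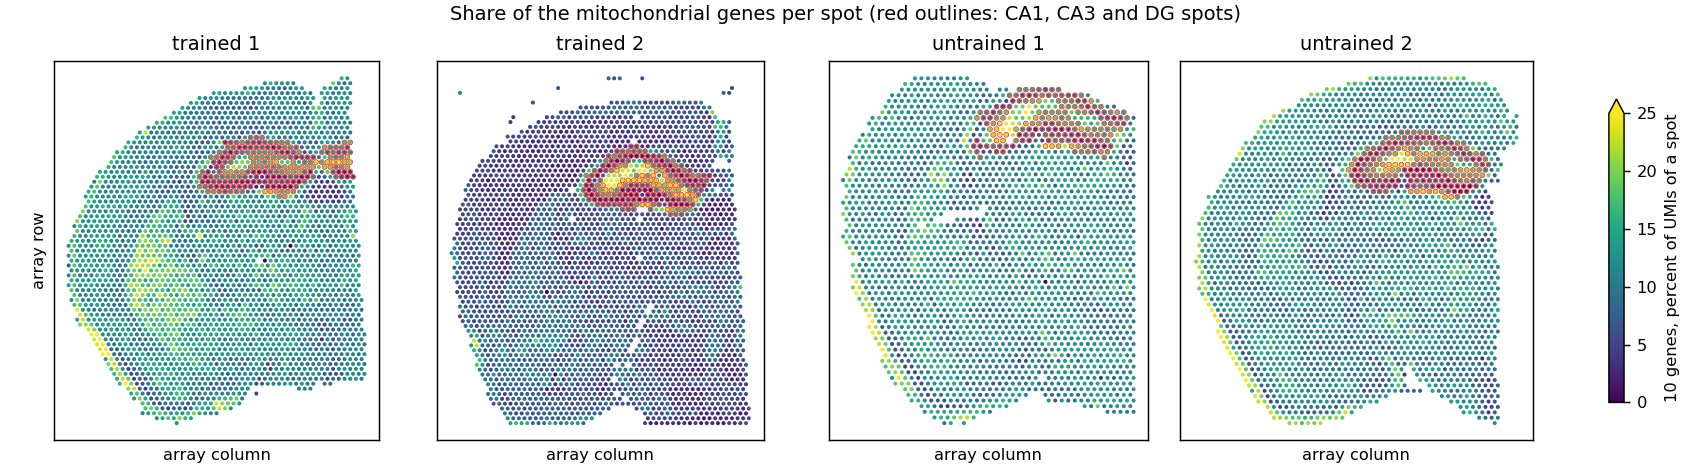
Each dot is a spot at its place on the array, and its color gives the percent of its UMIs that come from the 10 genes (scale cut at 25%), with spots of the CA1, CA3 and DG regions outlined in red. Trained 2 is low over most of the section (6.31% outside the outlined spots) and higher within them (11.1%), while the other sections have 11.4% to 12.2% outside and 9.64% to 11.3% within.

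Among the 10 genes, the subunits of complex IV and mt-Atp6 supplied most of the UMIs. mt-Co1, the catalytic core of complex IV, made up 19.8% ± 1.17 of the UMIs of the 10 genes (SD, n = 4 sections), mt-Co3 18.99% ± 1.60, mt-Atp6, which forms part of the proton channel of ATP synthase, 17.1% ± 0.669 and mt-Co2 11.6% ± 0.908. mt-Cytb, the electron-carrying core of complex III, made up 10.5% ± 0.721. Of the complex I subunits, mt-Nd4 made up 7.995% ± 0.337, mt-Nd1 6.46% ± 0.425, mt-Nd2 6.26% ± 0.624 and mt-Nd5 0.993% ± 0.0808. mt-Atp8, a small subunit of ATP synthase, made up 0.213% ± 0.0679. These are shares of the UMIs, each counting 1 captured molecule, and are not scaled by gene length.

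The genes were also set against each other per base of gene length, as a share of the summed UMIs per base of the 10 genes. On this scale mt-Atp6 (23.2% ± 0.747) and mt-Co3 (22.3% ± 2.02) came first and did not differ beyond their spread, since mt-Co3 was the higher of them in trained 2 (25.4% against 22.1%) and the lower in the other 3 sections. mt-Co2 (15.6% ± 1.14), mt-Co1 (11.8% ± 0.775) and mt-Cytb (8.47% ± 0.632) followed with no overlap between neighbours. mt-Nd1 (6.21% ± 0.366), mt-Nd2 (5.55% ± 0.513) and mt-Nd4 (5.34% ± 0.185) overlapped in turn, and mt-Atp8 (0.959% ± 0.299) and mt-Nd5 (0.501% ± 0.0371) came last. Over the 4 sections 5504 UMIs of mt-Atp8 stood beside 461099 of mt-Atp6, although the pair is carried on 1 mRNA. mt-Nd6, the only protein gene coded on the opposite strand and known to lack a poly(A) tail, had 513 UMIs. Capture starts from stretches of A and counts each molecule once, so a count need not grow with gene length. Dividing by length can therefore understate long genes. mt-Co1, with 1545 bases, came first by UMIs but after mt-Atp6, mt-Co3 and mt-Co2 per base. The part of gene length in either order was not tested.

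**Figure D2:**
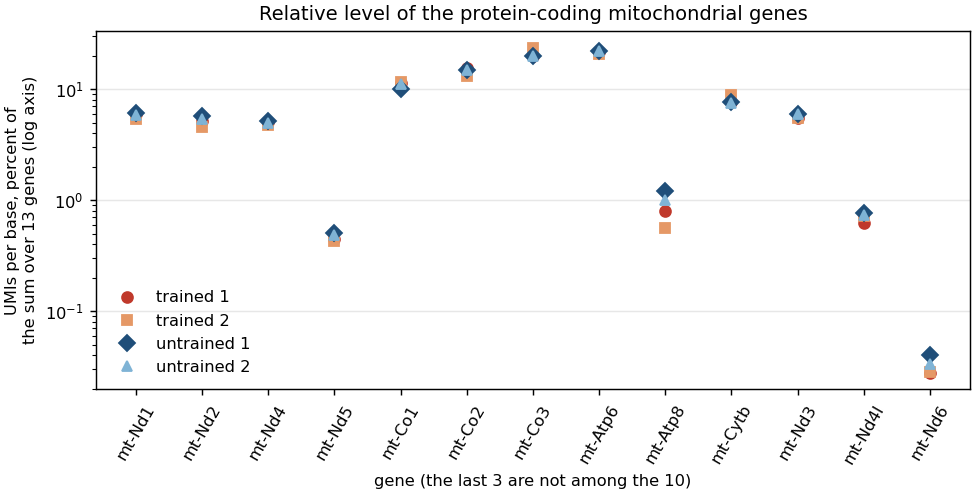
Points give the UMIs per base of each gene as a percent of the sum over the 13 protein-coding mitochondrial genes (log axis), 1 point per section. The sections almost coincide for the abundant genes, and mt-Atp8 spreads most among the 10, with both trained sections (red and orange) below both untrained sections (dark and light blue).

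The share of the 10 genes varied between brain regions, which were set by the leading marker list of each spot and its neighbors (14 regions, each with at least 10 spots in every section). In the striatal medium spiny neuron region, the main input of the basal ganglia, the 10 genes held 17.3%, 8.24%, 14.3% and 13.9% of the UMIs. In the meninges, the membranes around the brain, they held 13.1%, 11.04%, 14.4% and 13.98%. Lowest by the mean of the 4 sections was the choroid plexus, which secretes cerebrospinal fluid, with 7.43%, 6.88%, 10.9% and 6.95%, and then the CA3 pyramidal layer with 8.26%, 8.21%, 9.34% and 8.48%. Both high regions were above both low regions within each section, although the striatal region and CA3 of trained 2 nearly met. By rank from the highest, CA3 and the choroid plexus were at 5 and 6 of the 14 regions in trained 2, and the choroid plexus was at 11 in untrained 1. CA3 of untrained 1 rests on 17 spots.

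The highest region had 2.33, 4.44, 1.54 and 2.01 times the share of the lowest region in trained 1, trained 2, untrained 1 and untrained 2. The order of the 14 regions was most alike in untrained 1 and untrained 2 (Spearman rho 0.85 over 14 regions, a description) and in trained 1 and untrained 2 (0.75). Trained 2 had rho of 0.05, 0.30 and 0.12 with trained 1, untrained 1 and untrained 2. In trained 2 the DG granule layer came first, with 16.2%, and layer 6 of the cortex last, with 3.65%. In the other 3 sections DG came ninth, sixth and seventh, with 10.4%, 11.8% and 10.6%, and layer 6 held 10.7%, 10.8% and 9.76%. The thalamus (12.1% to 12.3%), the upper cortical layers (11.9% to 12.2%) and layer 5 (11.02% to 11.4%) were close to each other in those 3 sections, and were 6.32%, 5.19% and 5.08% in trained 2.

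**Figure D3:**
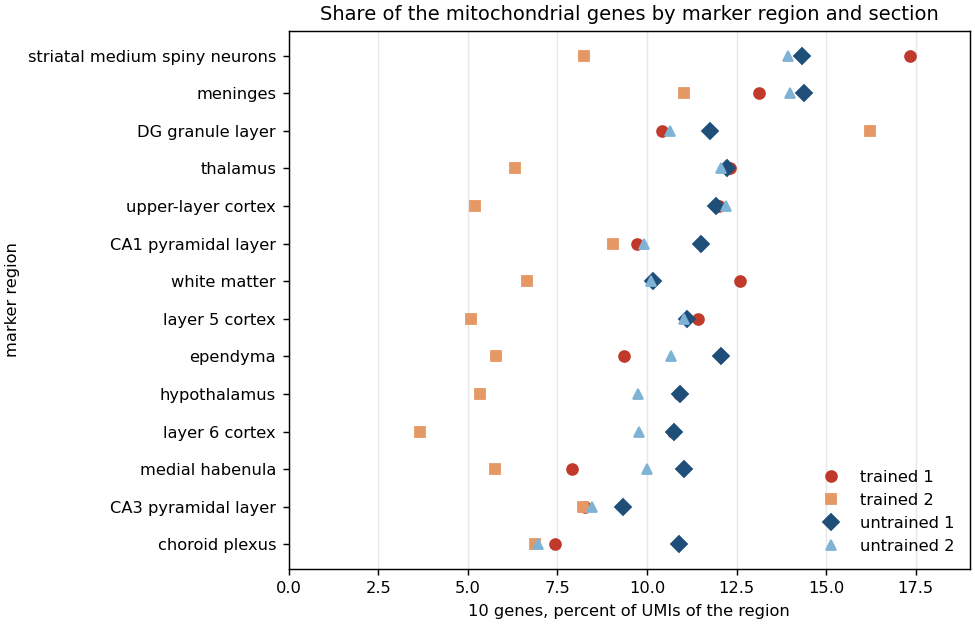
Each point is the percent of the UMIs of a marker region that come from the 10 genes, by section, with regions ordered by the mean of the 4 sections. Trained 2 (orange squares) is the lowest point in 13 of the 14 regions and the highest in the DG granule layer.

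Each region was set against the average of the remaining regions by edgeR's quasi-likelihood test on 56 sums, blocked by section and with adjustment over all 7638 genes. These 56 sums come from 4 sections, each of 1 mouse. With the section as a block, the p-values measure how region differences scatter between those sections, pooled over the 14 regions. They do not measure the spread of section levels or a spread over 56 independent samples. In the meninges all 10 genes were higher, with 2.47% of all genes tested called higher there. mt-Atp8 had the largest difference (log2 fold change 0.88, SE 0.19, adjusted p 9.7e-04), then mt-Nd5 (0.71), mt-Co2 (0.69) and mt-Nd2 (0.69), and mt-Nd1 the smallest (0.48, adjusted p 0.0266). Without untrained 1 or untrained 2 the count fell to 5 and 4, and without trained 2 it was 10.

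In the striatal region 9 of the 10 genes were higher, with 10.7% of all genes called higher. mt-Atp8, with 396, 136, 409 and 390 CPM (UMIs scaled to a common library total) there against 224, 88.6, 342 and 270 in the whole sections, was 0.74 higher on the log2 scale (SE 0.11, adjusted p 4.5e-08, edgeR). mt-Nd5, a proton-pumping subunit of complex I, followed with 0.66 (SE 0.13). mt-Co1 was not called (0.35, adjusted p 0.0672). In every section the CPM of mt-Atp8 and mt-Nd5 was higher in the striatal region than in the whole section. Without trained 1, the section with the highest striatal share, the count fell to 2, and without trained 2 it was 10.

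In the DG granule layer 7 genes were called higher (mt-Co1, mt-Co2, mt-Co3, mt-Atp6, mt-Nd4, mt-Nd5 and mt-Cytb), with 11% of all genes called higher. The call rests on trained 2. mt-Co3 had 18642, 34248, 20348 and 19451 CPM in DG, so trained 2 was far above the others, against 21749, 14272, 21464 and 20410 CPM in the whole sections. The log2 difference of mt-Co3 was 0.41 (SE 0.14, adjusted p 0.0270) with all sections and -0.11 (SE 0.11) without trained 2. Without trained 2 edgeR called 0 of the 10 genes in DG (0 at an unadjusted p under 0.05), where 11.4% of 6215 genes were called higher, and all 10 differences were below 0, from -0.19 (mt-Nd1) to -0.02 (mt-Nd4).

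Layer 6 had 3 genes called lower, mt-Nd2 (-0.47), mt-Atp8 (-0.45) and mt-Nd4 (-0.42), with 6.19% of all genes called lower, and 0 without trained 2 or without untrained 2 (2 and 8 at an unadjusted p under 0.05, edgeR). In the hypothalamus mt-Atp8 alone was lower (-0.46, adjusted p 0.0108), with 9.94% of all genes called lower, and it was called without trained 1 (-0.57) and without trained 2 (-0.42) but not without untrained 1 (-0.39, adjusted p 0.0734) or untrained 2 (-0.49, adjusted p 0.0506). In the other 9 regions, where 16.6% of the tests over all genes gave a call in either direction, none of the 10 genes was called by edgeR or by DESeq2. At an unadjusted p under 0.05 edgeR gave 8 of the 10 in the medial habenula, 3 in CA3, 1 in white matter and 0 in the others. Without trained 2, 3 of these regions gave calls. In CA3 9 of the 10 genes were then called lower there, all but mt-Atp8, with 3.94% of all genes called lower, led by mt-Nd5 (-0.67, adjusted p 2.2e-05) and mt-Cytb (-0.51). In the medial habenula 3 were lower, mt-Co2 (-0.45), mt-Nd2 (-0.37) and mt-Nd1 (-0.36), with 1.8% of all genes called lower, and in the thalamus mt-Co1 was higher (0.28, adjusted p 0.0357), with 15.2% of all genes called higher.

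Across the 14 regions the 10 genes varied together. The correlation of each with the sum of the other 9, over region means of log2 CPM centered within each section, ran from 0.87 for mt-Atp8 to 0.99 for mt-Co3, a description over 14 regions that share their libraries. Among 7702 nuclear genes with at least 20 CPM, the 5 most like the summed genes were Slc41a1, which codes for a magnesium transporter (r 0.79), Zkscan3 (0.76), Nup35 (0.73), Kmt2c (0.73) and Prrc2c (0.73), with mean levels of 23.4 to 51.6 CPM, where sampling noise is large.

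The nuclear-encoded subunits of the same complexes were compared between regions in the same fit. In DG 17 of 79 nuclear subunits were lower and 0 higher, with 7.5% of all genes called lower: 10 of 38 of complex I, 2 of 4 of complex II, 1 of 9 of complex III, 2 of 10 of complex IV and 2 of 17 of ATP synthase. Ndufa12, an accessory subunit of complex I, fell most by p (-0.59, adjusted p 6.1e-06), followed by Ndufa13 (-0.42) and Ndufs6 (-0.47). Without trained 2 it was 20 of 79 lower and 0 higher, with 7.53% of all genes called lower. In the striatal region 1 of 79 was higher, Cox7c of complex IV (0.21, adjusted p 0.0473), and in the meninges 2 were lower, Ndufv3 (-0.61) and Ndufc1 (-0.42), both of complex I, with 0.275% of all genes called lower. In layer 6, where 3 of the 10 mitochondrial genes were lower, 8 nuclear subunits were lower and 0 higher, and 4 and 0 without trained 2, with 3.25% of all genes then called lower. The thalamus and white matter, with none of the 10 mitochondrial genes called with all sections, had 22 and 23 nuclear subunits higher and 0 lower, with 17% and 14.5% of all genes called higher. These included 9 and 11 of complex I and 6 and 8 of complex IV. Without trained 2 the counts were 17 in the thalamus and 9 in white matter, where 11.5% of all genes were called higher. The upper cortical layers and the ependyma, also with none of the 10 called, had 12 and 9 nuclear subunits lower and 0 higher. The choroid plexus had 14 higher and 2 lower, and the hypothalamus 16 higher and 1 lower. Over the 14 regions 85 of 1106 tests of nuclear subunits were called higher and 54 lower. Of the tests over all genes there 16.3% gave a call in either direction, so these counts are not read as particular to the subunits. No difference between the nuclear and the mitochondrial genes was tested as such.

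Of 34 nuclear genes for the transcription, stability and translation of mitochondrial RNA, 14 were abundant enough for the region comparison. In 196 tests of a gene in a region edgeR gave 6 calls higher and 1 lower, where 16.3% of the tests over all genes in the 14 regions gave a call in either direction. DESeq2 gave 3 and 1. Without trained 2, when 10 of these genes were abundant enough, edgeR gave 1 and 0 in 140 tests. Esrra, a nuclear receptor that drives respiratory genes, was higher in the thalamus (0.84, adjusted p 3.3e-08), as was Tufm, the mitochondrial elongation factor Tu (0.35). Ppargc1a, the coactivator known for mitochondrial biogenesis, was higher in white matter (0.73) and layer 5 (0.68), Fastk was higher (0.44) and Ssbp1 lower (-0.66) in the upper cortical layers, and Hsd17b10 was higher in the choroid plexus (1.07). None of these 14 genes was called in DG, the striatal region, the meninges or layer 6.

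The share of the 10 genes was set against the depth of the spots. Spearman's rho between the share and the nuclear UMIs was -0.20, -0.07, -0.19 and -0.17 over the spots of trained 1, trained 2, untrained 1 and untrained 2, given as a description since spots of a section are not replicates. Against all UMIs it was -0.16, -0.04, -0.15 and -0.13. Nuclear UMIs are the main part of the denominator of the share, so that counting noise alone pulls this rho below 0, and its part was not tested. With the spots of a section put in 4 groups of equal size by nuclear UMIs, the share went from 13.7% in the shallowest to 11.03% in the deepest group in trained 1, from 13.5% to 11.1% in untrained 1 and from 12.8% to 10.5% in untrained 2. In trained 2 it was 6.80%, 7.44%, 6.95% and 6.35%. Every group of trained 2 was below every group of the other sections. Spots with more nuclear UMIs also had more UMIs of the 10 genes in all 4 sections (rho 0.88 to 0.94).

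**Figure D4:**
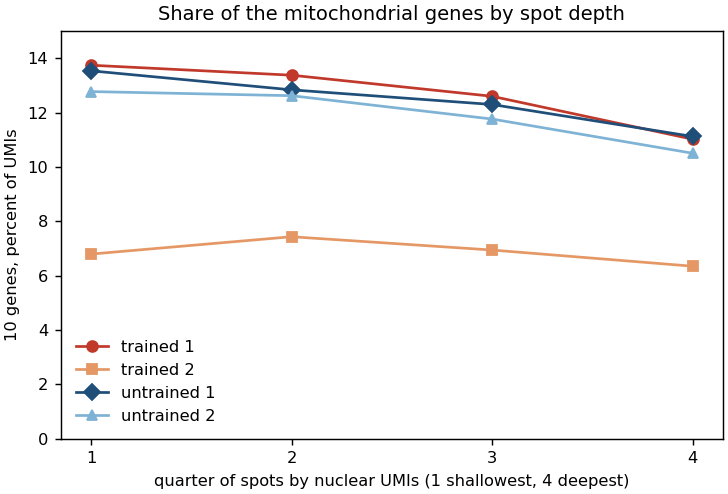
Lines give the percent of UMIs from the 10 genes in 4 equal groups of the spots of each section, ordered by nuclear UMIs per spot. The share declines over the groups in trained 1, untrained 1 and untrained 2, from 12.8% to 13.7% in the shallowest to 10.5% to 11.1% in the deepest, and stays between 6.35% and 7.44% in trained 2.

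The relation held within most regions outside trained 2: rho was below 0 in 12, 6, 13 and 13 of the 14 regions. It was steep in the hippocampus. In DG it was -0.45, 0.40, -0.34 and -0.49 over 85, 78, 81 and 81 spots, so trained 2 ran the opposite way. In CA1 it was -0.47, -0.19, -0.33 and -0.55, and in CA3 -0.54, -0.27, -0.55 and -0.67. The median share over DG spots, 14.9%, 15.9%, 14.7% and 15.2%, lay within 1.21 percentage points in all sections, while the pooled shares of 10.4%, 16.2%, 11.8% and 10.6%, in which the deep spots count for more, did not. DG spots had a mean of 329, 523, 167 and 359 UMIs of the 10 genes beside 2821, 2691, 1249 and 2999 nuclear UMIs.

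Training was compared first over whole sections, with edgeR on the 4 sums. None of the 10 genes was called, where 0.0145% of 13810 genes were called in either direction. DESeq2 also called 0 of the 10. With no filter on low counts edgeR called 7 of the 10 lower, all but mt-Co1, mt-Co3 and mt-Cytb, where 0.678% of 20060 genes were called lower. At an unadjusted p under 0.05 edgeR gave 1 of the 10 and 1099 of all genes, and DESeq2 0 and 476. The fold changes (trained over untrained) of all 10 genes were below 0, with a median log2 of -0.43 beside 0.01 over all genes. They ran from -1.03 (mt-Atp8, SE 0.34, adjusted p 0.582) to -0.27 (mt-Co1, SE 0.25).

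These values depend on trained 2. Without it edgeR called 0 of the 10 (1 at an unadjusted p under 0.05, mt-Atp8), where 0.283% of all genes were called, and the changes ran from -0.47 (mt-Atp8) to 0.12 (mt-Co1). With trained 2 alone against the untrained sections, so that its spread was taken from the others, all 10 were called lower, from -1.92 (mt-Atp8) to -0.69 (mt-Co3), where 3.83% of all genes were called lower. With 2 sections against 2, an exact permutation test of a single value cannot go below p = 0.333.

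mt-Atp8 was the gene with the most regular difference. Its level was 224 and 88.6 CPM with training and 342 and 270 CPM without, from 1593, 915, 1216 and 1780 UMIs, so the groups did not overlap. mt-Nd5 (1130 and 606 against 1278 and 1161 CPM) was the other gene of the 10 without overlap and with the trained sections lower. Of 12115 genes with at least 100 UMIs in all, 12.1% had both trained values below both untrained values. The CPM of mt-Atp8 in the trained sections was below both untrained sections in 11 of the 14 regions. For the other genes of the 10 this held in 3 (mt-Co1) to 8 (mt-Nd2) regions. The regions of a section share 1 library, so these counts are not independent. The share of all genes with this order within regions was not computed.

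Within regions, fitted one by one, edgeR called mt-Atp8 lower in trained sections in 3 of the 14 regions and none of the other 9 genes in any. In the thalamus mt-Atp8 had 194, 57.8, 338 and 269 CPM from 145, 91, 102 and 167 UMIs (log2 fold change -1.43, SE 0.22, adjusted p 2.0e-05), with 0.185% of all genes called lower. In white matter it had 288, 100.3, 351 and 291 CPM (-1.04, SE 0.26, adjusted p 0.0493), with 0.212% called lower, and in the meninges 260, 174, 614 and 422 CPM from 23 to 42 UMIs (-1.47, SE 0.33, adjusted p 0.0270), with 1.34% called lower. In each of these regions both trained sections were below both untrained sections. None of the 3 calls was made by DESeq2, which called 0 of the 10 genes in any region (21 of 140 tests at an unadjusted p under 0.05), and none was made without trained 2 (-0.61, -0.10 and -1.14). With sums thinned to the smallest total of a region none of the 3 was made either (edgeR, -1.23, -0.81 and -1.64, adjusted p 0.741, 0.503 and 0.327). In the other 11 regions, where 0.0786% of the tests over all genes gave a call, edgeR called none of the 10.

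The regional calls moved with the trained section used. With trained 2 alone 78 of the 140 tests of a gene in a region were called, 73 lower and 5 higher, in 10 regions (0.828% of the tests over all genes). With trained 1 alone 6 were called (0.116% of the tests over all genes): mt-Co1, mt-Co2, mt-Co3, mt-Nd1 and mt-Atp6 higher in the striatal region, by 0.32 (mt-Atp6) to 0.45 (mt-Co2), and mt-Atp8 lower in the ependyma (-1.59, SE 0.44).

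CA1, CA3 and DG, the fields the study asked about, gave no call for the 10 genes with all sections. In CA1 all 10 changes were below 0, with a median of -0.28, and in CA3 7 were, with a median of -0.15. In DG 8 of the 10 were above 0, with a median of 0.24, from -1.10 (mt-Atp8) to 0.50 (mt-Co3), but without trained 2 it was 0 of the 10, with a median of -0.13. The difference between regions in the training effect was tested itself, with the section as a block. edgeR called 0 of the 10 genes in any region (15 of 140 tests at an unadjusted p under 0.05, where 0.00727% of the tests over all genes gave a call), and DESeq2 was not run on this term. Without trained 1, 16 of 140 were called, where 0.0866% of the tests over all genes were: 9 higher in DG, by 1.34 (mt-Nd1) to 1.56 (mt-Co2), 2 higher in CA3 and 5 lower in layer 6. Without trained 2 it was 0 (23 at an unadjusted p under 0.05).

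The nuclear subunits gave no call with training. Over whole sections edgeR called 0 of 79 (26 at an unadjusted p under 0.05) and DESeq2 0 (28 unadjusted), with medians of 0.24 for complex I, 0.08 for complex II, 0.28 for complex III, 0.25 for complex IV and 0.13 for ATP synthase, and 0.36 for cytochrome c (Cycs), beside 0.01 over all genes. Of the 34 genes of mitochondrial RNA synthesis and use 33 were tested and 0 called by edgeR or DESeq2 (1 and 0 at an unadjusted p under 0.05). In the regions edgeR called 0 in 1100 tests of the nuclear subunits (104 unadjusted) and 0 in 132 tests of the other list (3 unadjusted), and DESeq2 called 0 of both (20 and 0 unadjusted). For the difference between regions edgeR called 0 in 1106 and 280 tests (21 and 9 unadjusted). Without trained 2 the median of the 79 nuclear subunits was 0.16, against 0.24 with all sections, and that of the 10 mitochondrial genes was -0.0032, against -0.43. No difference between these lists was tested.

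Shares among the 10 genes do not change when all 10 rise or fall together, so they were set side by side next. mt-Atp8 made up 0.187% and 0.133% of the UMIs of the 10 genes with training and 0.290% and 0.240% without. mt-Nd2 made up 6.16% and 5.45% against 6.94% and 6.46%, mt-Nd5 0.946% and 0.908% against 1.09% and 1.03%, and mt-Atp6 17.1% and 16.2% against 17.7% and 17.5%. For these 4 genes both trained sections were below both untrained sections, and mt-Co1 (20.4% and 20.6% against 18.1% and 20.2%) was the gene with both above. The trained shares were both lower in 12 of the 14 regions for mt-Atp8 and mt-Nd2, 11 for mt-Nd5 and 9 for mt-Atp6, and both higher in 8 for mt-Co3, 6 for mt-Co1 and 3 for mt-Cytb. No gene had regions of both kinds. The regions of a section share 1 library, so these counts are not independent.

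The ratio of mt-Atp8 to mt-Atp6, the pair whose overlap is printed above, showed the same order. There were 1.09 and 0.819 UMIs of mt-Atp8 per 100 of mt-Atp6 with training and 1.64 and 1.37 without, and both trained sections were below both untrained sections in 12 of the 14 regions. CA1 (1.33, 0.930, 1.59 and 1.12) and layer 5 (1.22, 0.777, 1.40 and 1.18) were the exceptions. The ratio runs opposite to the total UMIs of the sections: trained 2, the deepest library, had the lowest ratio and untrained 1, the shallowest, the highest. Depth order and training cannot be told apart here, since the trained sections were also the 2 with the most UMIs.

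The shares moved with the A content of the genes, a relation looked for after the shares had been seen. Over the 10 genes, Pearson's r between the percent of A and the log2 ratio of the shares in a trained and an untrained section was -0.89 and -0.80 for trained 1 against untrained 1 and untrained 2, and -0.94 and -0.90 for trained 2. The relation also separated sections of 1 condition: r was 0.83 for trained 1 against trained 2 and 0.88 for untrained 1 against untrained 2. In all 6 pairs the deeper library had less of the A-rich genes. Without mt-Atp8 the size of r was 0.49 to 0.87. These are descriptions over 10 genes of 1 genome, which are not independent. Within regions the sign was the same in all 14 regions for 4 of the 6 pairs, and in 12 of 14 for trained 1 against untrained 2 and untrained 1 against untrained 2.

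**Figure D5:**
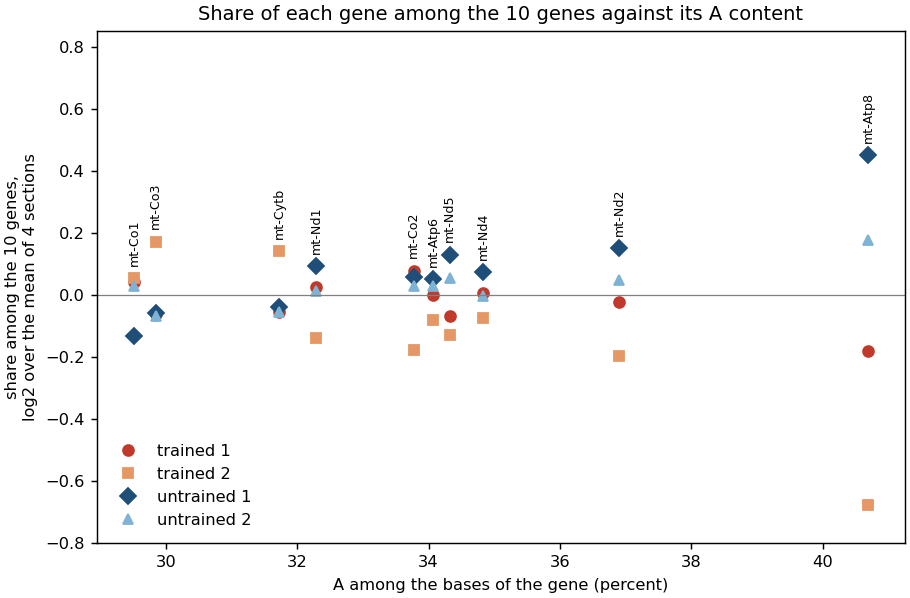
Each point is the share of a gene among the UMIs of the 10 genes in a section, as log2 over the mean of the 4 sections, against the percent of A in the gene. At the A-rich end (mt-Atp8 and mt-Nd2) the sections run from untrained 1 at the top through untrained 2 and trained 1 to trained 2 at the bottom, with mt-Atp8 from 0.45 to -0.68, and at the A-poor end trained 2 is the highest.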

How the data were processed

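The authors aligned the reads with Space Ranger (version 1.2.2 per the file headers, another version in the methods) and deposited raw UMI counts per gene and spot, for spots over tissue, with 1 table per section. The build is mm10 in the methods and mm39 in the submitters' processing notes, so coordinates and sequences here come from the GENCODE vM21 annotation (GRCm38), matched by Ensembl gene ID. Whether multimapped reads, such as those from nuclear copies of mitochondrial DNA, were kept is not given in the sources used here.

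Counts were summed per section, or per section and marker region. A spot took the region whose markers led in it and its 6 neighbors (score at least 0.5, lead at least 0.25, patches of at least 5 spots, and the largest patch alone for thalamus, medial habenula, hypothalamus and striatum). Reasons for changes of this rule were a missing CA3 and stray patches. It is the last of 4 versions tried with the mitochondrial shares in view, and the earlier 3 were kept as alternatives. A split of the hippocampal fields by the number of markers was tried and left out, because it separated shallow from deep spots. The members, lists and tests were chosen with earlier results of these data known, and the A content was examined after the shares were seen.

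The sums were tested with edgeR 4.0.16 (filterByExpr, TMM, quasi-likelihood F-test, limma 3.58.1, R 4.3.3), with Benjamini-Hochberg adjustment over all genes at 0.05. Named genes are the 10 members, the 3 further mitochondrial genes, called genes of the lists (at most 5 of a list by p) and the 5 most similar nuclear genes (log2 CPM with 1 CPM added). Alternatives were DESeq2 1.42.0, no filter, nuclear genes alone as normalization base, 3 abundant genes removed (Gm42418, Bc1, Ttr), sums drawn down at random to the lowest total, a replicate block, fits not blocked by section, other region rules, spots under 500 UMIs left out, other denominators, and each section left out in turn. A marker comparison between the sections is not reported here. On simulated data the section fit recovered 87% of genes changed 2-fold and 99% of those changed 4-fold among 13810 genes. The region fit recovered 100% of both among 7638 genes. The changed genes were drawn from the more abundant ones, and 13 and 5 unchanged genes were called. No simulated section stood apart as trained 2 does, so these rates need not hold for the 10 genes. Totals were 3560294 to 10330015 UMIs per section, and with 2 sections per group their number limits the precision. The Python steps used numpy 2.4.6, scipy 1.17.1, pandas 2.3.3 and matplotlib 3.10.9.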

Additional observations from a re-analysis of the deposited data

How the results depend on the processing

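Of 376 values recomputed under alternatives, 305 kept their direction and stayed within the limits set for them, and 0 reversed, although most of these are counts or shares, which carry no sign. Among single genes, mt-Co3 in DG went from 0.41 to -0.11 and mt-Co1 with training from -0.27 to 0.12 without trained 2, none of the new values called. Over whole sections the members called with training numbered 0 in the main fit, 7 with no filter (1.05% of all genes called), and 0 to 10 with a section left out. In the regions they numbered 3 in the main fit (0.135% of all tests), 0 with DESeq2, 0 with thinned sums and 5 with no filter (0.0811% of all tests). They numbered 1 with scores without neighboring spots (0.0114%), 1 with scores of summed lists (0.0429%) and 3 to 78 with a section left out. For each region against the others the total was 30 in 140 tests, where 16.3% of the tests over all genes gave a call. It was 68 with no filter (7.36% of the tests over all genes), 18 with thinned sums (13%) and 2 without the block of section (13%). For the training effect between regions the total was 0, with 7 under no filter (0.0187%) and 0 to 16 with a section left out. By region, with a section left out, the count ran from 2 to 10 (striatal), 4 to 10 (meninges), 0 to 8 (DG) and 0 to 3 (layer 6). Without the block of section it was 2, 0, 0 and 0. DG gave 4 with DESeq2 and 4 with thinned sums. Layer 6 gave 6 with no filter, 0 with thinned sums, 5 with scores without neighboring spots, 1 with a larger lead, 0 with scores as means over genes and 5 with scores of summed lists. Unsmoothed scores left 8 regions and the larger lead 13. The cause of these moves was not tested, apart from the loss of a section where 1 was left out.

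The replicate numbers are shared between the groups. Deviations of same-numbered sections from their group means had a correlation of 0.02 over 13810 genes. This single measure cannot show whether same-numbered sections shared a slide or batch. With the replicate number as a block the members called were 1 over whole sections (mt-Atp8, with 0.34% of all genes called) and 13 of 140 in the regions (with 0.325% of the tests over all genes called), and mt-Atp8 in the meninges was not called (-1.45, adjusted p 0.332). No other replicate block was fitted.

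The summed share moved in CA1 from 10.1% to 11.2% over nuclear UMIs and to 12.1% as the median over spots, in CA3 from 8.57% to 9.40% over nuclear UMIs, in DG from 12.3% to 15.2% as the median over spots, and in the meninges from 13.1% to 15.2% over nuclear UMIs. Per 1000 bases the shares among members moved to 5.55% (mt-Nd2), 5.34% (mt-Nd4), 0.501% (mt-Nd5), 11.8% (mt-Co1), 15.6% (mt-Co2), 22.3% (mt-Co3), 23.2% (mt-Atp6), 0.959% (mt-Atp8) and 8.47% (mt-Cytb). The call of mt-Atp8 with training was lost in the thalamus under 6 alternatives, in white matter under 10 and in the meninges under 6, with every fold change still below 0. Depth limits mt-Atp8 most, with 23 to 42 UMIs per section in the meninges.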
